A study of Kluyveromyces marxianus and Saccharomyces cerevisiae with 12 samples.

Results

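Transcripts of the wine yeast *Saccharomyces cerevisiae* EC1118 were compared between 20 h and 6 h of an alcoholic fermentation. The comparison used 6 of the 12 samples of a study of a pair of wine yeasts, 3 taken at 20 h and 3 at 6 h, chosen by the labelled strain and fermentation time. All 6 samples were of the same strain with no stated genetic change or added agent. They grew at 25 °C in a medium with 230 g/l of sugars, 10 mg/l of phytosterols and 200 mg/l of assimilable nitrogen, supplied as ammonium and amino acids. The labels number the samples of a time 1 to 3 without naming separate cultures, so the p-values take in the variation among these samples alone, and it may be technical. The tables held 6461 loci on 16 chromosomes, of which 6017 carried a protein-coding tag and 444 were RNA loci. These chromosomes were held as 31 scaffolds. Positions below count along the scaffold of a locus, and loci of 1 chromosome can lie on different scaffolds.

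EC1118 is a commercial *S. cerevisiae* strain used to start wine fermentations. In such a fermentation yeast first multiplies on sugar and assimilable nitrogen, and later goes on turning sugar into ethanol in cells that divide little or not at all. Growing yeast cells spend much of their transcription on ribosomes, that is on ribosomal RNA, on the messenger RNAs of ribosomal proteins and on the small RNAs that modify and cut ribosomal RNA. The tables gave no gene name for any protein-coding locus, so these loci are described by level, span, position and direction, and the labelled times could not be checked against marker genes. The RNA loci carried names.

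The libraries separated by time. Expression was given as FPKM, the fragments of a locus divided by its length and by the library's mapped total, so that levels of loci of different length can be compared. The bounds around the FPKM values gave about 7.67, 6.39 and 5.498 M fragments (1 M is 1000000) for replicates 1, 2 and 3 at 20 h. At 6 h the totals were 21.6, 9.34 and 1.51 M, the last from 1 of the 3 tables of that sample. Over the 5638 protein-coding loci with a mean of at least 1 FPKM, Spearman's rho between samples of 1 time was 0.945 to 0.981, and between times it was 0.751 to 0.821. Replicate 3 at 20 h and replicate 1 at 6 h were the farthest from the others of their time. At 20 h, replicate 3 lay 2-fold or more from the mean of the other two samples at 7.06% of loci, against 3.05% and 3.19% for replicates 1 and 2. At 6 h, replicate 1 did so at 5.23% of loci, against 3.55% and 4.70% for replicates 2 and 3.

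Most protein-coding loci differed between 20 h and 6 h, and more were higher than lower at 20 h in the FPKM as deposited. Of the 5638 loci tested with limma on log2(FPKM + 1), 3435 (60.9%) passed a Benjamini-Hochberg adjusted p of 0.05. At 20 h 2265 of the tested loci (40.2%) were higher and 1170 (20.8%) were lower than at 6 h. On this scale 1318 of the higher and 655 of the lower loci changed at least 2-fold, and 105 and 77 at least 8-fold. At 3922 loci the samples at 20 h and at 6 h did not overlap, and 3421 of these were called. In this bulk RNA, fewer cells that express a locus and less of its RNA per cell cannot be told apart.

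The split between directions depended on the scaling. The median log2 change over the coding loci was 0.31 as deposited. After median-ratio scaling, which sets the typical locus to no change, the median was -0.01, and 1694 loci (30.0%) were higher and 1748 (31.0%) lower at 20 h. The scaling factors were 1.10, 1.06 and 1.23 for the samples at 20 h and 0.849, 0.909 and 0.925 for those at 6 h, without overlap. Every one of the 1694 loci higher after scaling was also higher as deposited, and all 1170 loci lower as deposited were also lower after scaling. The scaled fit lost 571 of the higher loci and added 578 lower ones, and no locus was called in opposite directions. Quantile normalization gave 1703 higher and 1566 lower loci and a median of 0.03.

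**Figure D1:**
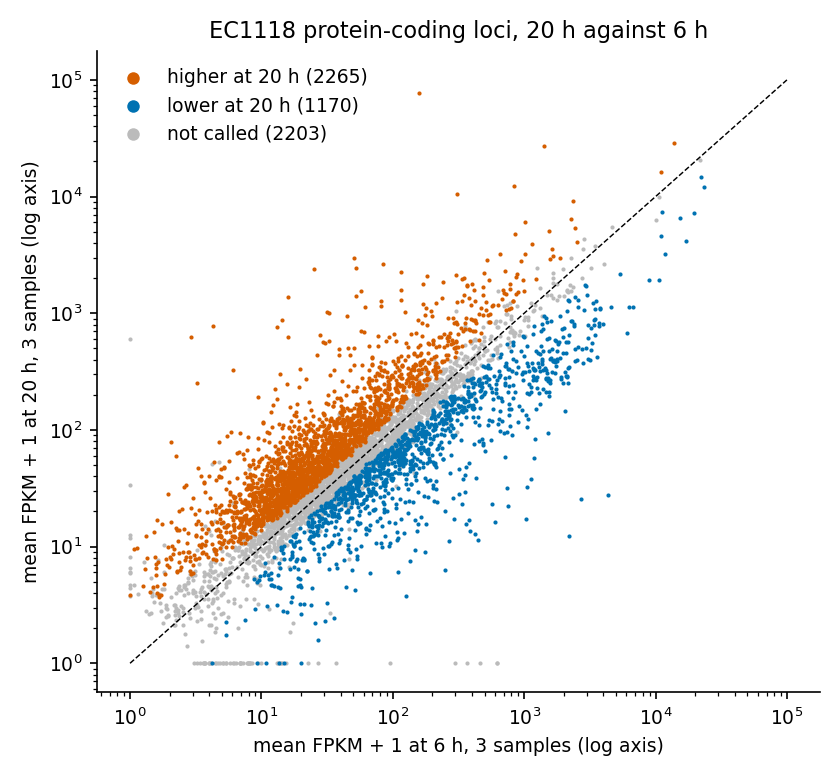
Mean FPKM + 1 of each of the 5638 protein-coding loci tested, at 20 h (vertical, log axis) against 6 h (horizontal, log axis), means of 3 samples each. The dashed line marks equal levels; orange points (2265) were called higher at 20 h, blue points (1170) lower, and grey points (2203) were not called. A single locus stands near 77100 FPKM at 20 h, far above its level of 158 FPKM at 6 h.

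The 2 largest rises among called loci with at least 10 FPKM in the higher time and no overlap between times were short loci of chromosome XIII. EC1118_1M3_3642g, a locus of 240 nt at 581095 to 581334 of its scaffold, had 59648, 81710 and 89942 FPKM at 20 h, against 104, 206 and 164 FPKM at 6 h. All samples at 20 h were far above all samples at 6 h, and the locus was the highest of all coding loci at 20 h and ranked 1034 at 6 h. Its mean was 77100 ± 15664 FPKM at 20 h and 158 ± 51.5 FPKM at 6 h (SD, n = 3 each), and the log2 change was 8.96 ± 0.29 (SE; limma adjusted p = 7.47e-06). Over the 21 ways of processing tried, its log2 change ran between 8.08 and 9.17.

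EC1118_1M3_2795g, a locus of 348 nt at 452566 to 452913 on the same scaffold, had 409, 521 and 952 FPKM at 20 h, against 1.91, 0.666 and 3.101 FPKM at 6 h. It ranked 272 among coding loci at 20 h and 5503 at 6 h. The log2 change was 7.76 ± 0.41 (SE; limma adjusted p = 2.98e-05), and it stayed past the threshold under all 21 ways of processing. The value at 6 h lay close to the pseudocount of 1 FPKM, so the log2 change understates the ratio of the means, which was 332.

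The 2 largest falls by the same rule differed in how firmly they were measured. EC1118_1J11_2696g, a locus of 1536 nt on chromosome X at 451244 to 452779, had 9.63, 10.3 and 13.7 FPKM at 20 h, against 3131, 2196 and 1277 FPKM at 6 h. The 3 values at 20 h lay close together and the 3 values at 6 h spread over more than 2-fold. The log2 change of this locus was -7.42 ± 0.33 (SE; limma adjusted p = 1.48e-05), with a range of -7.76 to -7.00 over the ways of processing. It ranked 5034 among coding loci at 20 h and 76 at 6 h.

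EC1118_1L7_1420g, a locus of 135 nt on chromosome XII at 207321 to 207455, had 634 FPKM in replicate 1 at 20 h and 0 as listed in replicates 2 and 3, against 1077, 1174 and 2125 FPKM at 6 h. The times did not overlap, but the samples at 20 h did not resemble each other. Its log2 change was -7.34 ± 2.36 (SE; limma adjusted p = 0.0311), and the call was lost in 7 of the 20 alternatives, with adjusted p between 0.000123 and 0.208. The log2 change ran from -10.44 without replicate 1 at 20 h to -3.13 with limma-voom on recovered fragments, and the ratio of the means was 0.145. The call was lost without any 1 of replicates 2 and 3 at 20 h or replicates 1, 2 and 3 at 6 h, where the adjusted p was 0.0843 to 0.106. For loci under 200 nt, the median SD between the tables of 1 sample was 0.468, 0.629 and 0.169 on the log2 scale in replicates 1, 2 and 3 at 20 h, and 1.53, 2.19 and 0.231 at 6 h. In each sample it was above that of loci of 2000 nt and over, which was 0.0861, 0.125 and 0.0786 at 20 h, and 0.154, 0.192 and 0.0901 at 6 h. Replicates 1 and 2 at 6 h each held a shallow table, of 0.224 and 0.0819 M fragments, weighted like their other tables. The part of these shallow tables in the spread was not tested.

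**Figure D2:**
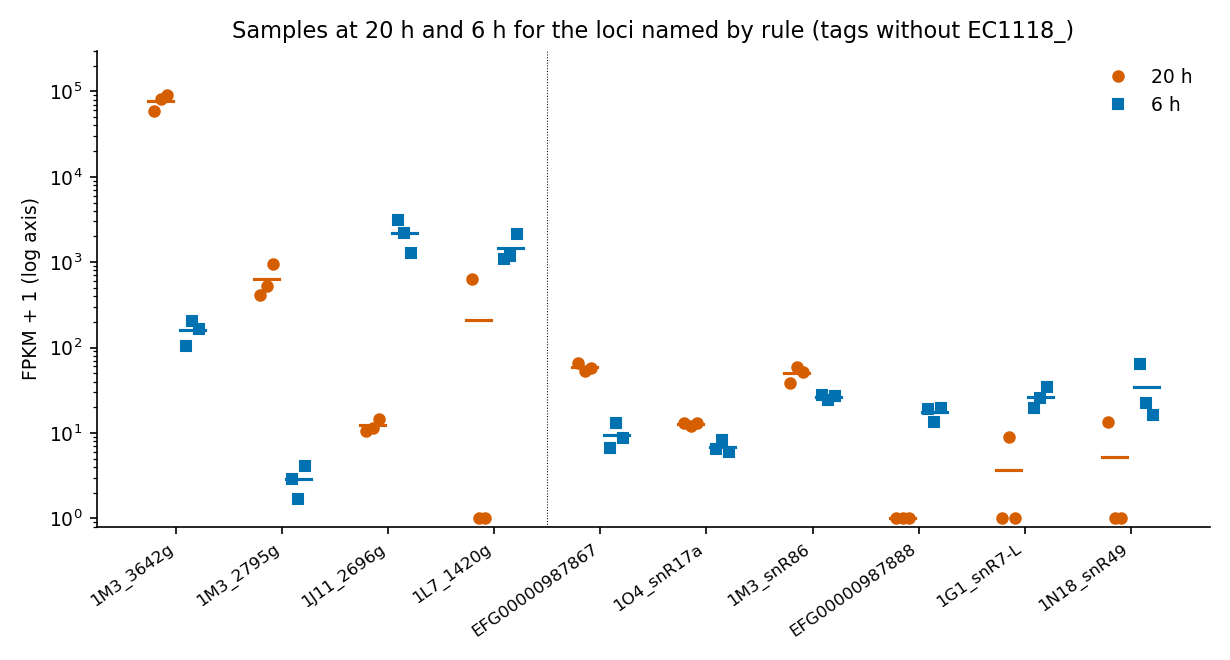
FPKM + 1 (log axis) in each of the 3 samples at 20 h (orange circles, left of each pair) and at 6 h (blue squares), with horizontal bars for the means. The 4 protein-coding loci stand left of the dotted line and the 6 RNA loci right of it; points at 1 are samples in which the locus was listed at 0.

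The rises and falls of at least 8-fold lay on all chromosomes. Of 4 classes of equal size by mean level, the highest held 51 of the 105 rises and 43 of the 77 falls, and the third 18 and 17. The second held 17 rises and 5 falls, and the lowest 19 and 12. The level averages both times, so a locus can enter the highest class through the time at which it is high. The share of the highest class is in part set by this. The 105 rises lay on 16 chromosomes, with at most 13 on 1 of them (XV), and the 77 falls lay on 16, with at most 10 (XII). The median of the rises was 183 FPKM at 20 h and 11.7 FPKM at 6 h, and the median of the falls was 15.8 FPKM at 20 h and 289 FPKM at 6 h. No overlap between times was seen for all 105 rises and for 75 of the 77 falls, and for 3421 of all 3435 called coding loci. A locus listed near 0 at 1 time and clearly above it at the other was rare. At 1 locus every sample at 20 h had at least 10 FPKM and every sample at 6 h under 1 FPKM, and at 3 loci the reverse held.

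A larger share of the summed coding FPKM lay in the single highest locus at 20 h. The highest coding locus of each sample took 5.88, 7.81 and 7.51% of the summed coding FPKM at 20 h, and was EC1118_1M3_3642g in all 3, against 2.05, 2.004 and 2.35% at 6 h. The 10 highest loci took 21.2 ± 0.517% at 20 h and 15.1 ± 0.758% at 6 h (SD, n = 3 each). The 100 highest took 44.2 ± 0.361% at 20 h and 41.8 ± 0.701% at 6 h. The highest locus of a sample is counted in each of these shares, so its own rise is part of the differences. Further down the order the difference turned round: the 500 highest loci took 68.1 ± 0.542% at 20 h and 72.2 ± 0.302% at 6 h. None of these shares overlapped between times, and each gave an exact two-sided permutation p of 0.10, the smallest that 3 against 3 samples allow. Of the 10 loci with the highest means at each time 4 were shared, and of the 100 highest 39 were shared. The shares are sums within a sample and do not depend on its scaling.

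Level and direction went together across loci. The tested coding loci were divided into 4 level classes of equal size by their mean FPKM over all 6 samples, at 21.5, 46.3 and 116 FPKM. In the lowest level class 42.9% of 1410 loci were higher and 9.43% lower at 20 h. In the highest level class 31.6% of 1410 were higher and 35.8% lower. The classes between them had 48.3% higher and 14.5% lower, then 37.9% higher and 23.2% lower. The median log2 change was 0.52, 0.45, 0.21 and -0.14 in order of level. After median-ratio scaling the same order stood, with 32.6% higher and 15.5% lower in the lowest level class, and 24.5% higher and 47.6% lower in the highest.

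The 3 samples of each time stood on the same side of the pattern across levels. Relative to the median of all coding loci in the same sample, and to the mean of each locus over the 6 samples, the highest level class stood at -0.26, -0.16 and -0.18 on the log2 scale at 20 h, against 0.24, 0.18 and 0.19 at 6 h. The lowest level class stood at 0.15, 0.12 and 0.05 at 20 h, against -0.13, -0.10 and -0.14 at 6 h. Because each locus is set against its mean over both times, the values at 6 h largely mirror those at 20 h. They are not separate evidence of the pattern. Quantile normalization, which gives every sample the same distribution of levels, took the pattern away in large part: the lowest level class then had 23.1% higher and 18.6% lower, and the highest 33.6% higher and 34.6% lower.

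Longer loci were called higher more often. The span, the distance between the first and last base of a locus in the tables, was under 400 nt for 600 tested coding loci, of which 26.8% were higher and 15.8% lower at 20 h. Of the 1785 loci of 400 to under 1000 nt, 34.8% were higher and 27.4% lower. Of the 2100 loci of 1000 to under 2000 nt, 43.9% were higher and 21.3% lower. Of the 1153 loci of 2000 nt and over, 48.7% were higher and 12.1% lower. The median log2 change was 0.13, 0.12, 0.34 and 0.46 in order of span.

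After median-ratio scaling the shares higher were 20.3, 25.8, 33.2 and 36.0% in order of span, and the shares lower were 23.2, 38.2, 31.5 and 23.2%. With quantile normalization the shares higher were 24.5, 28.4, 33.3 and 30.3%, so the longest class no longer stood above the next. With limma-voom on recovered fragments the classes under 400 nt and of 400 to under 1000 nt turned, to 16.5% higher and 22.7% lower, and to 30.6% higher and 34.7% lower. Span and level overlap as classes, since the median span was 1566 nt in the lowest level class and 810 nt in the highest. Within a level class the share higher did not always climb with span. In the lowest level class 24 of 200 loci under 400 nt were higher, and in order of span 32.2, 53.4 and 51.5% of the longer ones. In the second class the shares higher were 36.8, 40.9, 50.6 and 53.2%. They were 31.5, 40.6, 37.3 and 35.1% in the third, and 34.6, 27.9, 34.0 and 39.4% in the highest. The lower share of calls under 400 nt went with a wider spread: the median SD between samples of 1 time was 0.398 at 20 h and 0.348 at 6 h on the log2 scale, against 0.189 and 0.170 for loci of 2000 nt and over. The part of this spread in the shares called was not tested.

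**Figure D3:**
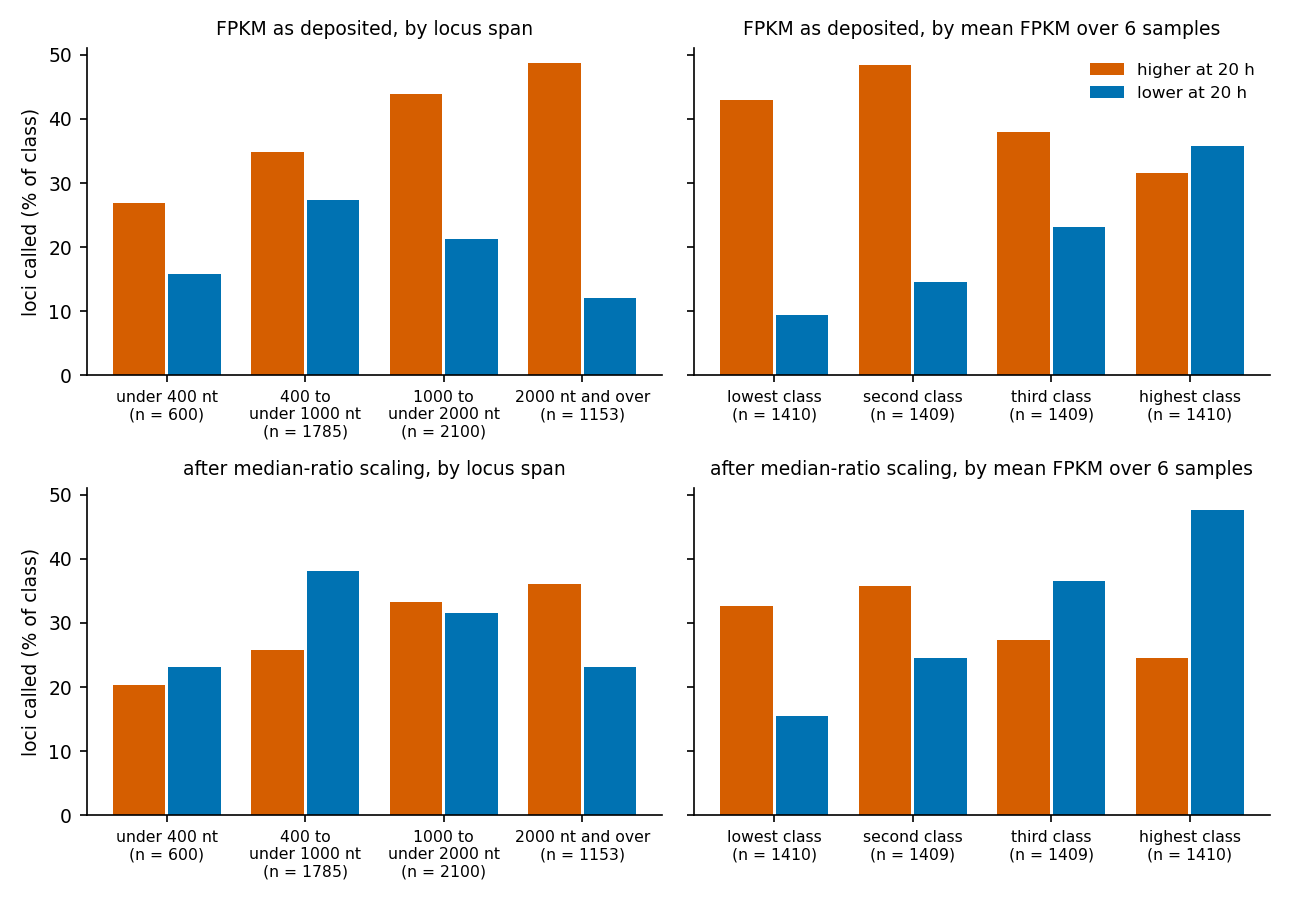
Percentage of tested coding loci called higher (orange) and lower (blue) at 20 h, by span (left) and by level class, the mean FPKM over 6 samples (right), for FPKM as deposited (top) and after median-ratio scaling (bottom). The share lower climbs with level in both rows, to 35.8% and 47.6% in the highest level class, and the share higher climbs with span, to 48.7% and 36.0%.

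As a group, coding loci whose span was not a multiple of 3 stood apart, a grouping chosen after the values were seen. An unbroken coding sequence has a span that is a multiple of 3, as 5830 of the 6017 coding spans were, and a gene with an intron need not. As background, few *S. cerevisiae* genes have introns, and many of those that do encode ribosomal proteins. The tables do not say which spans hold an intron. Of the 185 tested loci with such spans, 15.7% were higher and 51.4% lower at 20 h, with a median log2 change of -0.74, against 41.0% higher, 19.7% lower and 0.33 for the 5453 other coding loci. At 400 to under 1000 nt, 60.2% of 123 such loci were lower, against 25.0% of 1662 others. At 1000 to under 2000 nt, 48.7% of 39 were lower, against 20.8% of 2061. The larger share lower was not seen in the shortest and longest loci. Under 400 nt, 9.09% of 11 were lower, against 16.0% of 589. At 2000 nt and over, 8.33% of 12 were lower, against 12.1% of 1141.

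These 185 loci took 4.54, 5.40 and 5.12% of the summed coding FPKM at 20 h, against 14.0, 15.1 and 14.5% at 6 h. The times did not overlap (exact two-sided permutation p = 0.10, the smallest possible with 3 against 3). The grouping was chosen after the values were seen, so neither the gap nor this p-value is separate support for it. Their median log2 change was lower than that of the other loci in each level class, with the widest gap among abundant loci. In the highest level class 108 such loci had a median log2 change of -1.51, and 80 of them (74.1%) were lower at 20 h. The 1302 other loci of that class had a median of -0.03, and 425 (32.6%) were lower. In the third class 30 such loci had a median of -0.24 and 36.7% were lower, against 0.22 and 22.9% for the 1379 others. The second class had 20 such loci with a median of 0.09, 30.0% higher and 10.0% lower, against 0.46, 48.6% and 14.6% for the 1389 others. In the lowest level class 27 such loci had a median of 0.03, with 25.9% higher and 7.41% lower, against 0.53, 43.2% and 9.47% for the 1383 others. After median-ratio scaling 79.6% of the 108 abundant loci were lower, against 44.9% of the other loci of that class. Over all ways of processing tried, the share lower among the 185 loci was 46.5 to 62.2%.

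**Figure D4:**
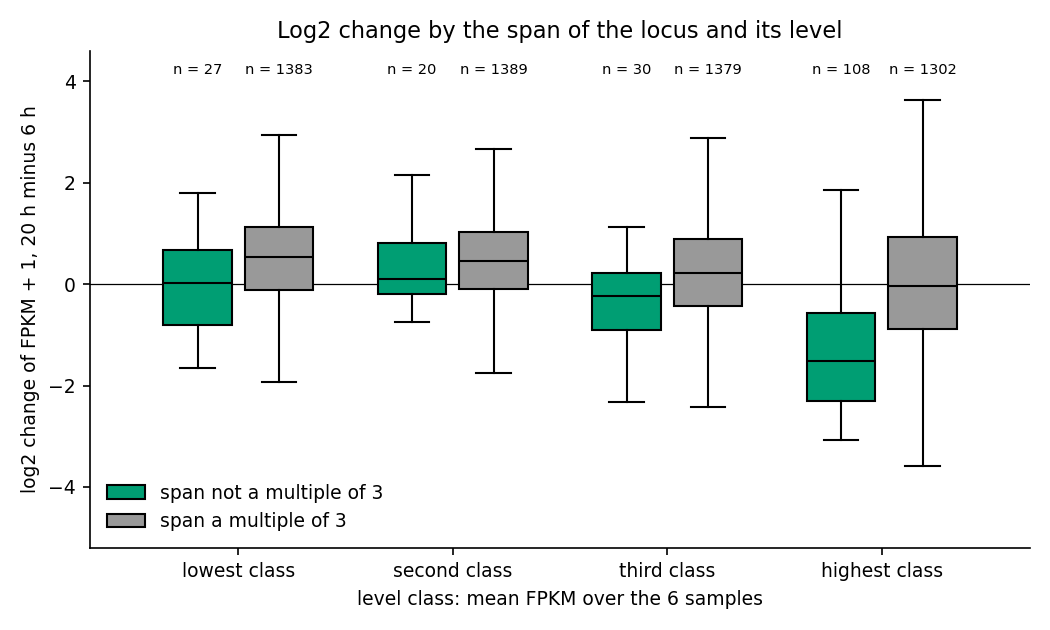
Log2 change of FPKM + 1 (20 h minus 6 h) for coding loci whose span is not a multiple of 3 (green, left of each pair) and is a multiple of 3 (grey), by level class, the mean FPKM over 6 samples. Boxes reach between the 25th and 75th percentile with the median as a line, whiskers reach 1.5 times the box height, loci beyond them are not drawn, and n is the number of loci. The green box of the highest level class lies below 0 as a whole, with a median of -1.51.

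The shares called differed between chromosomes, and the differences were not tested. The share of tested coding loci higher at 20 h was lowest on VII, at 34.3% of 508 loci, and highest on XI, at 44.9% of 292 loci. The share lower was lowest on IX, at 15.8% of 203 loci, and highest on II, at 25.2% of 381 loci. On each of the 16 chromosomes more loci were higher than lower as deposited. After median-ratio scaling the share higher was 23.6% on VII and 36.0% on IX, and IX, XII, XIII, XIV, XV and XVI had more loci higher than lower.

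**Figure D5:**
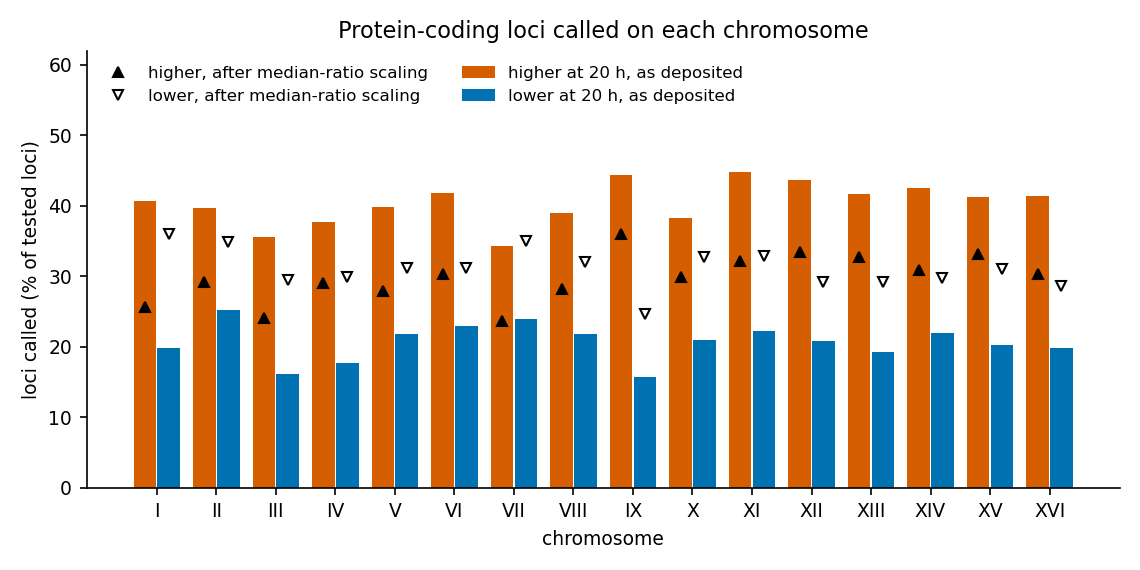
Percentage of tested coding loci called higher (orange bars) and lower (blue bars) at 20 h on each chromosome, for FPKM as deposited, with triangles for the same shares after median-ratio scaling. Orange bars run from 34.3% (VII) to 44.9% (XI) and blue bars from 15.8% (IX) to 25.2% (II).

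The log2 changes of neighbouring loci were weakly correlated. Pearson's r between the log2 changes of adjacent tested coding loci was 0.11 over 5607 pairs, which share libraries and, in part, position; it was 0.11 whether the gap was under 500 nt or larger. Calls that held in the same direction under both scalings were grouped into runs of adjacent tested loci. The longest run of lower loci had 8 members, on chromosome II at 529429 to 541280. Their summed level was 361, 473 and 428 FPKM at 20 h, against 1855, 1705 and 1578 FPKM at 6 h, and the median log2 change was -1.67. None of the 8 spans departed from a multiple of 3.

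The longest run of higher loci had 7 members on chromosome VI, at 12371 to 34560 of its scaffold. Its summed level was 275, 232 and 202 FPKM at 20 h, against 32.5, 27.6 and 33.4 FPKM at 6 h. The log2 changes of its members ran between 0.96 and 3.69, with a median of 1.51, or 1.24 after median-ratio scaling. A run of 6 higher loci on chromosome XII, at 106544 to 118506 of its scaffold, was more abundant. It summed to 1406, 1328 and 1478 FPKM at 20 h, against 456, 364 and 251 FPKM at 6 h. A run of 6 lower loci on chromosome X, at 74145 to 80690, summed to 896, 1106 and 2785 FPKM at 20 h, against 11292, 8356 and 8741 FPKM at 6 h. The sums of these 4 runs did not overlap between times, which their choice from called loci fixes.

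Calls that held under both scalings gave 25 runs of 5 or more higher loci and 4 of 5 or more lower loci. Meanwhile 742 higher and 656 lower loci stood alone between neighbours not called the same way. How many such runs unrelated neighbours would give was not worked out. At the right end of chromosome XV, the last 30 kb of the scaffold held 9 tested coding loci, 5 of them (55.6%) higher and 1 (11.1%) lower at 20 h, against 41.2% and 20.3% of all 522 tested on that chromosome.

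Most RNA loci other than messenger RNA were listed at 0. Of 278 loci of transfer RNAs, which carry amino acids to the ribosome, 276 were listed at 0 in all 6 samples, and 65 of the 134 loci that were neither transfer nor ribosomal RNA were too. Among the 74 RNA loci with a mean of at least 1 FPKM, 9 (12.2%) were called, 3 higher and 6 lower at 20 h; over all 5712 loci tested the share called was 60.3%. Loci of ribosomal RNA and its spacers summed to 1152, 3482 and 78.7 FPKM at 20 h, against 17794, 2866 and 1652 FPKM at 6 h, so the times overlapped and the samples of a time differed widely. None of the 6 such loci tested was called. In replicate 1 at 6 h, the tables of the sample also differed. The small-subunit locus was listed at 0 in 8 of the 13 tables and at up to 11602 FPKM in others. In the other samples it was listed at 0 wherever its value was marked OK. Several small RNAs were listed more than once, under a strain tag and an EFG identifier that overlap in position, and reads may be divided between such loci. Each FPKM is divided by the length of its own locus. The sums over overlapping loci given below are therefore a rough guide and not the level of 1 RNA. How well the libraries capture RNAs other than messenger RNA was not tested. The FPKM of these loci may therefore not measure the amounts of the mature RNAs.

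Loci of small nucleolar RNAs, which guide chemical modification or cutting of ribosomal RNA, were called in either direction. The EFG00000987867 locus of snR11, a guide for ribosomal RNA modification, on chromosome XIII at 622339 to 622596, had 64.6, 52.5 and 56.5 FPKM at 20 h, against 5.67, 12.04 and 7.75 FPKM at 6 h. The log2 change was 2.68 ± 0.25 (SE; limma adjusted p = 0.000168). The overlapping locus EC1118_1M3_snR11 had 48.0, 92.7 and 80.9 FPKM at 20 h, against 89.9, 37.8 and 72.8 FPKM at 6 h, where the times overlapped. Summed over both loci the values were 113, 145 and 137 FPKM at 20 h, against 95.6, 49.8 and 80.5 FPKM at 6 h, still without overlap.

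EC1118_1M3_snR86, another modification guide, on chromosome XIII at 732150 to 733153, had 37.1, 58.5 and 50.3 FPKM at 20 h, against 26.8, 23.3 and 26.0 FPKM at 6 h. Its log2 change was 0.89 ± 0.18 (SE; limma adjusted p = 0.00497), and quantile normalization alone lost the call, with adjusted p of 0.00344 to 0.0619 over the alternatives. EC1118_1O4_snR17a, the U3 RNA that takes part in cutting the ribosomal RNA precursor, on chromosome XV at 750480 to 750969, had 12.01, 11.1 and 12.1 FPKM at 20 h, against 5.45, 7.22 and 5.00 FPKM at 6 h (log2 change 0.90 ± 0.19, SE; limma adjusted p = 0.00569, range 0.00106 to 0.0709, lost with quantile normalization). Of the 2 loci that overlap it, 1 is also annotated as U3 and the other, EC1118_1O4_4632g, carries a protein-coding tag. With both, the sums were 25.0, 54.6 and 17.7 FPKM at 20 h, against 70.7, 23.8 and 13.8 FPKM at 6 h, and the times overlapped.

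The 2 loci of snR49, also a modification guide, on chromosome XIV at 146537 to 146706, fell together. EFG00000987888 was listed at 0 in all 3 samples at 20 h, against 17.9, 12.4 and 18.7 FPKM at 6 h (limma adjusted p = 7.74e-05, lost in 2 of 19 alternatives with adjusted p of up to 0.487). EC1118_1N18_snR49 had 12.6 FPKM in replicate 1 at 20 h and was listed at 0 in replicates 2 and 3, against 63.8, 21.3 and 15.2 FPKM at 6 h. Its log2 change was -3.58 ± 1.07 (SE; limma adjusted p = 0.0232) and lost the call in 8 alternatives, with adjusted p of 0.002 to 0.307 over all of them. Among single samples, leaving out replicate 2 or 3 at 20 h or replicate 1 or 2 at 6 h lost it. The summed values of the loci were 12.6, 0 and 0 FPKM at 20 h, against 81.6, 33.7 and 33.9 FPKM at 6 h, without overlap.

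Among the remaining called RNA loci, those of snR7-L, RPR1 and TLC1 serve other machines. EC1118_1G1_snR7-L, the long form of the U5 RNA of the spliceosome, on chromosome VII at 901449 to 901662, was listed at 0 in replicates 1 and 3 at 20 h and had 7.90 FPKM in replicate 2, against 18.5, 24.8 and 33.7 FPKM at 6 h (log2 change -3.65 ± 0.84, SE; limma adjusted p = 0.00803). The call was lost without replicate 3 at 20 h and replicate 1 at 6 h together, over a range of adjusted p of 8.35e-05 to 0.0778. With the short form, which overlaps it, the sums were 33.5, 289 and 0 FPKM at 20 h, against 121, 204 and 81.0 FPKM at 6 h, and the times overlapped.

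Another 3 called RNA loci were named after their values were seen. EC1118_1E8_RPR1, the RNA of the enzyme that trims transfer RNA precursors, had 0.836, 1.63 and 1.98 FPKM at 20 h, against 6.11, 6.28 and 7.30 FPKM at 6 h (log2 change -1.63 ± 0.31, SE; limma adjusted p = 0.00372). The call was lost, with an adjusted p of 0.509 and a range from 0.000918, when replicate 1 at 6 h was taken from 5 of its 13 tables. Summed with the locus that overlaps it, the times overlapped, at 1.87, 7.47 and 2.43 FPKM at 20 h and 12.2, 6.28 and 8.07 FPKM at 6 h. EC1118_1B15_TLC1, the template RNA of telomerase, had 17.0, 18.3 and 12.5 FPKM at 20 h, against 21.0, 22.9 and 26.3 FPKM at 6 h. Its log2 change was -0.54 ± 0.18 (SE; limma adjusted p = 0.035), and 7 alternatives lost the call, with adjusted p of up to 0.293, among them leaving out replicate 1 or 3 at 20 h or any replicate at 6 h. EC1118_1M3_snR83, a modification guide, had 24.7, 39.5 and 15.3 FPKM at 20 h, against 49.2, 51.1 and 45.3 FPKM at 6 h (log2 change -0.94 ± 0.31, SE; limma adjusted p = 0.0324), and 7 alternatives lost the call, with adjusted p of up to 0.125, among them leaving out replicate 1 at 20 h or any replicate at 6 h.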

How the data were processed

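The authors deposited 35 tables of FPKM for the 6 *S. cerevisiae* samples, which per the file headers are Cufflinks tracking tables that add a confidence bound on either side of each FPKM. A sample had 4, 6 or 3 tables at 20 h and 13, 6 or 3 at 6 h; the labels do not say how they differ. Total RNA went into TruSeq V2 libraries, per the labels' protocols. The submitters' processing notes list Cufflinks 2.2.1.2 and Cuffdiff 2.2.1.5 beside TopHat2 2.0.8, and also Trim Galore 0.4.3.1 and FastQC 0.10.1, without roles; a genome build is not given in the sources used here. FPKM divides by length and library total, so 1 very abundant locus lowers all others of a sample.

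The tables of a sample were averaged with equal weight to 1 FPKM value per locus, leaving out 126 values not marked OK. Start positions in the tables count from 0 and were raised by 1. Fragments were recovered from the FPKM bounds in 33 tables; a median of 76.0% of values below 5.5 fragments were whole within 0.02. Loci with a mean of at least 1 FPKM were tested on log2(FPKM + 1), 20 h minus 6 h, with limma 3.58.1 (R 4.3.3) and its intensity trend, all 5712 loci in 1 fit, with Benjamini-Hochberg adjustment at 0.05. A change on this scale understates that of low loci. Class shares and runs are descriptions without a test.

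Named were the 2 largest rises and 2 largest falls among called coding loci with at least 10 FPKM in the higher time and no overlap, and the 3 largest rises and 3 largest falls among called RNA loci. The rule's parts that needed symbols, and the planned gene lists, were not run, since no coding locus carries a symbol. Members, classes and lists were chosen with earlier results of these data known. Chromosomes come from the locus tags. The background functions of RNA loci follow their *S. cerevisiae* names.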

Additional observations from a re-analysis of the deposited data

How the results depend on the processing

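Over 20 alternatives, the number of coding loci called (3435) and those higher (2265) or lower (1170) stayed within 1.5 times, and no locus was called in opposite directions. Leaving out each sample gave 2886 to 3429 called, 1934 to 2172 higher and 952 to 1257 lower, with at least a 2-fold change for 1200 to 1386 higher and 632 to 660 lower. The 2-fold higher loci numbered 868 after median-ratio scaling, by its own construction. That scaling gave 23.2% lower at 2000 nt and over, and 15.5, 24.5 and 36.5% lower in the 3 lower level classes. With quantile normalization 30.3% were higher and 24.1% lower at 2000 nt and over. In the lowest 2 level classes 23.1 and 32.01% were then higher and 18.6 and 26.6% lower. Limma-voom on recovered fragments gave 16.5% higher and 22.7% lower under 400 nt, with a median log2 change of -0.21; the cause was not tested. Deviations from the mean of their time correlated at -0.12, 0.17 and 0.03 between samples with the same number. Between samples with different numbers they correlated at -0.19 to 0.10. With 3 samples per time these values cannot decide whether samples with the same number share a culture or batch. With the replicate block 3229 coding loci were called, and among the named loci the call of EC1118_1B15_TLC1 was lost. A further 3 alternatives were added after seeing the data. Without replicate 3 at 20 h and replicate 1 at 6 h, 2041 loci were higher and 1270 lower. The 13 tables of replicate 1 at 6 h fell into 2 sets. The small-subunit ribosomal RNA locus was listed at 0 in 8, and above 0 or not marked OK in 5. From these sets 3462 and 3331 coding loci were called. Spearman's rho between tables was 0.968 to 0.979 within the 8. It was 0.975 to 0.981 within 4 of the 5, leaving out 1 with 0.224 M fragments, and 0.9495 to 0.9606 between the sets. Between replicate 1 and replicates 2 and 3 at 6 h, rho was 0.9605 and 0.9576. Replicate 1 at 6 h thus averages 2 unlike sets of tables. The pooled depth of replicate 3 at 6 h is known for 1 of 3 tables.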
